A study of Mus musculus with 16 samples.

Results

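The TSC22 family was described across mouse bone marrow derived mast cells (BMMCs), taking the 4 genes Tsc22d1, Tsc22d2, Tsc22d3 and Tsc22d4 out of 39179 gene identifiers in the count data. Members were chosen by gene symbol and not by a measured value, though with earlier results of these data known. The glucocorticoid target Tsc22d3 was set beside its 3 relatives. RNA was sequenced from 16 samples, 2 for each of 8 conditions. The conditions combined 2 genotypes, wild-type PEP+/+ and mutant PEP-/-, with 4 treatments. PEP is the PEST-domain-enriched tyrosine phosphatase encoded by Ptpn22. Cells of all groups came from male C57BL/6 mice aged 8 to 10 weeks and had been cultured for 4 weeks with stem cell factor and IL3. Every group received immunoglobulin E (IgE) for 3 h, at 0.05 µg/ml in the labels; the text of the study gives another IgE dose. IgE alone gave the sensitized cells. The antigen dinitrophenol (DNP, 200 ng/ml for 1 h) was added for activated cells, and dexamethasone (DEX, a synthetic glucocorticoid, 100 nM for 8 h) was given without or with DNP, so the groups are named IgE, IgE DNP, IgE DEX and IgE DNP DEX. No group was left without IgE. The study speaks of biological replicates, but no source used here says whether they came from separate mice or cultures, so p-values measure only the spread between these samples, part of which may be technical.

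Proteins of the TSC22 family share a leucine zipper next to a conserved TSC box, through which they pair with each other and with other proteins. Tsc22d3 encodes GILZ, the glucocorticoid-induced leucine zipper, which is switched on by the ligand-bound glucocorticoid receptor and is known for holding back NF-kappaB and AP-1 signalling in immune cells. Tsc22d1 encodes the founding member, first isolated as a transcript stimulated by TGF-beta. Tsc22d1, Tsc22d2 and Tsc22d4 also have long isoforms, which bind NRBP pseudokinases and WNK kinases. In mast cells, antigen that crosslinks IgE on its receptor starts degranulation and cytokine transcription, which glucocorticoids restrain.

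Ptpn22, the gene disrupted in the mutant, had 130 to 2799 reads in the PEP+/+ samples and 0 to 55 reads in the PEP-/- samples. Between 8612531 and 22143526 reads per sample fell on genes. All 12 mast cell markers found in the files were present, with a summed level of 63700 to 104300 CPM (read counts scaled to library size). Markers of neutrophils, B and T cells and stroma were near 0: the summed level stayed at or below 2.35 CPM for 5 neutrophil genes, 0.605 CPM for 4 B and T cell genes and 0.190 CPM for 4 stroma genes, with Cd3e, Cd3g and Col1a2 at 0 reads in every sample. The macrophage list summed to 5.80 to 17.9 CPM, with Mrc1 at no more than 1 read, and the 3 basophil markers were all present, at a summed 228 to 882 CPM. Reads outside annotated genes took 4.69% to 7.18% in the 8 samples numbered by the labels (replicate 1) and 8.35% to 11.0% in the 8 samples given letters (replicate 2), so the replicates of each condition differ in this measure.

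Tsc22d3 (ENSMUSG00000031431) lies on the minus strand of chromosome X at 140539528-140600659 in GRCm38, with 6 annotated transcripts, 3 of them coding. Tsc22d1 (ENSMUSG00000022010) lies on the plus strand of chromosome 14 at 76414961-76507765 and has 16 transcripts, 10 of them coding. Tsc22d4 (ENSMUSG00000029723) lies on chromosome 5 at 137745730-137768450, and Tsc22d2 (ENSMUSG00000027806) on chromosome 3 at 58414715-58466783, both on the plus strand. Reads were counted per gene, so the long and short isoforms of a member could not be told apart. No other annotated gene overlapped any of the 4.

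Because the glucocorticoid receptor binds DNA directly, promoter sequence was read in a set of RefSeq windows (GRCm38.p6). The set used here held 3 windows of Tsc22d3, 5 of Tsc22d1 and none of Tsc22d2 or Tsc22d4. Each window ran from 250 bases before to 50 bases after an annotated start. The full receptor site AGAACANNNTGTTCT, searched on both strands, was in none of these 8 windows and in 3 of 32851 windows of all genes (0.00913%), which says only that these letters are not in these windows. The hexamer AGAACA, an arm of the full site, was in 2 of the 8 member windows and in 19.0% of all windows. The FOXO site GTAAACA was in none of the 8 and in 3.65% of all, and the E-box CACGTG was in 1 of the 8, a window of Tsc22d1, and in 7.15% of all. The stretches with the hexamer are shown because they belong to the member that DEX raised most and to the relative it raised in activated cells. They run 5′ to 3′ on the strand of the gene, with the hexamer in capitals, which in Tsc22d3 reads on the other strand.
Tsc22d3, chrX:140600660-140600772, minus strand: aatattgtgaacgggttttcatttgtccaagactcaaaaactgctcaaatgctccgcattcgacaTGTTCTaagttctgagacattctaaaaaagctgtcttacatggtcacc
Tsc22d1, chr14:76504077-76504106, plus strand: ttatccttgcacAGAACAcagcctctgtag
A match is a description of letters. Binding was not measured. The Tsc22d3 stretch ends just before the coding transcript that begins at 140600659. The annotated starts of the other coding transcripts of Tsc22d3, at 140543187 and 140548338, lie in none of its windows. The Tsc22d1 stretch lies before the coding transcript that begins at 76504214. Reads were counted per gene, so the start from which the RNA raised by DEX came was not tested.

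All values below are normalised read counts in CPM unless a length scale is named. In sensitized PEP+/+ cells, Tsc22d3 stood at 117 and 81.7 CPM in the 2 samples, and with DEX it stood at 924 and 801 CPM. In sensitized PEP-/- cells it was 134 and 122 CPM without DEX and 1277 and 978 CPM with DEX. Every sample with DEX was far above every sample without it, and the groups did not overlap. Tsc22d3 was raised 8.73-fold by DEX, a log2 fold change of 3.13 ± 0.18 (SE) averaged over genotypes, with an adjusted p of 1.64e-06 by edgeR's quasi-likelihood test. The log2 fold change was 3.12 in PEP+/+ cells and 3.13 in PEP-/- cells. Of the 13305 genes tested, 9.37% passed this test 5.4% as increases and 3.98% as decreases. Tsc22d3 was the only one of the 4 members to pass, ranking 117th by log2 fold change among 718 increases and 15th by p among all genes. In bulk RNA, fewer cells of a type and less RNA per cell cannot be told apart.

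**Figure D1:**
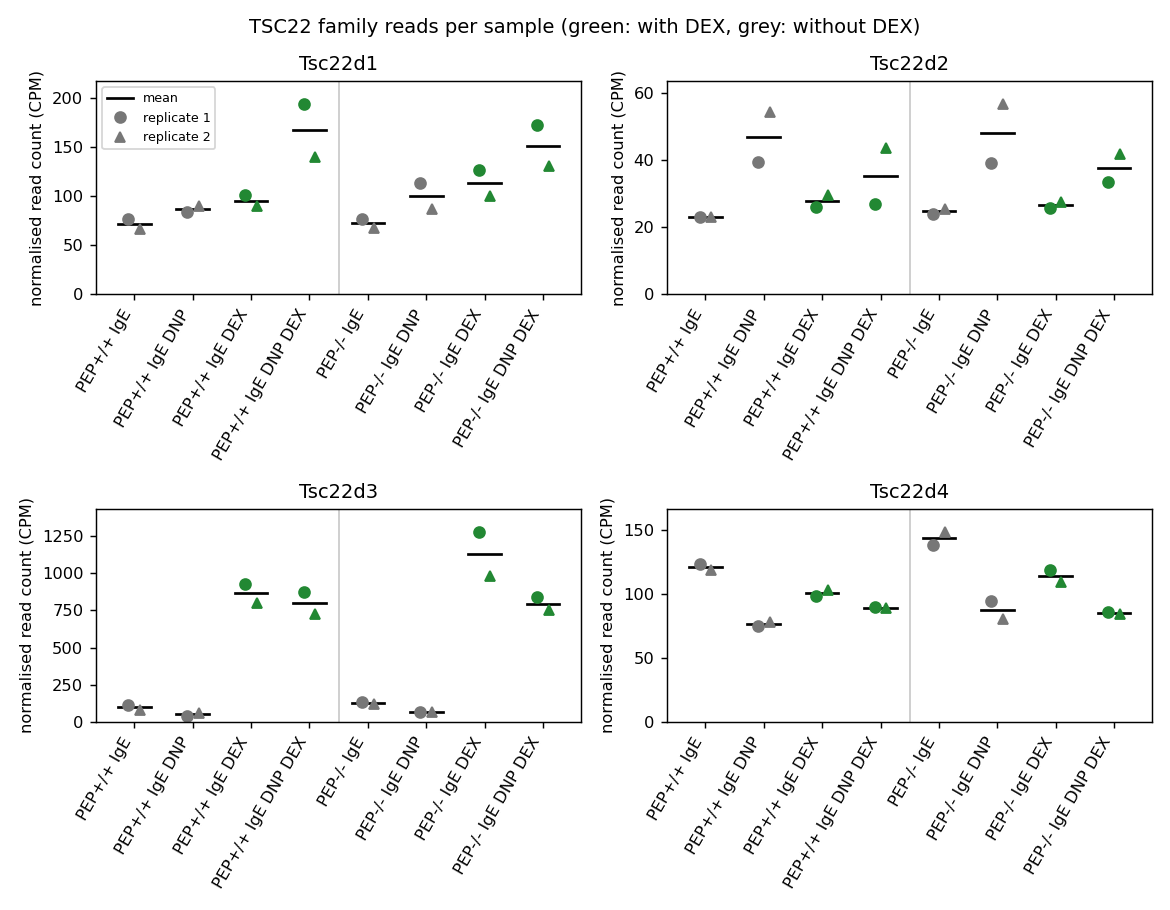
Normalised read counts (CPM) of the 4 members in each of the 16 samples, by condition on the horizontal axis; circles are replicate 1, triangles replicate 2, bars the mean of 2, green samples had DEX. Tsc22d3 with DEX lies between 725 and 1277 CPM, against 43.9 to 134 CPM without it, while the relatives stay within 23.1 to 194 CPM throughout.

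The relatives moved little by comparison in sensitized cells. Tsc22d1 was 77.0 CPM at most in the 4 IgE samples and 89.6 CPM at least in the 4 IgE DEX samples, so the groups did not overlap. Its log2 fold change was 0.53 (95% interval 0.18 to 0.88), which missed the threshold with an adjusted p of 0.0629 by edgeR. With the replicate number as a block the adjusted p was 0.00100, with DESeq2 0.0244. Tsc22d4 ran the other way, from 119 to 149 CPM without DEX and from 98.3 to 119 CPM with it. Its log2 fold change was -0.30 (adjusted p = 0.102 by edgeR, 0.0156 with the replicate block, 0.00857 with DESeq2). Tsc22d2 lay between 23.1 and 25.5 CPM without DEX and between 25.8 and 29.6 CPM with it, and its log2 fold change of 0.19 had a 95% interval from -0.23 to 0.60. The groups did not overlap in any of the 4 members, as in 15.6% of all genes. With the replicate block, 3 of the 4 members passed, against 26.7% of all genes.

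The DEX response was then compared in activated cells. Tsc22d3 was 43.9 and 63.5 CPM in PEP+/+ IgE DNP samples and 876 and 725 CPM in PEP+/+ IgE DNP DEX samples. In PEP-/- cells it was 65.3 and 67.5 CPM against 837 and 752 CPM. Again no sample with DEX came near those without. Tsc22d3 rose 13.4-fold (log2 fold change 3.74 ± 0.19, adjusted p = 4.46e-07 by edgeR) and ranked 56th by log2 fold change among 754 increases. The log2 fold change was 3.90 in PEP+/+ and 3.58 in PEP-/- cells.

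Tsc22d1 was the second member to rise with DEX in activated cells. Its 4 IgE DNP samples lay at 83.5, 89.7, 113 and 87.0 CPM and its 4 IgE DNP DEX samples at 194, 140, 172 and 130 CPM. All samples with DEX exceeded all without it. The rise averaged over genotypes was 1.70-fold, a log2 fold change of 0.77 ± 0.16 (adjusted p = 0.0101 by edgeR). It was 0.94 in PEP+/+ cells (adjusted p = 0.0483 by edgeR, 0.000403 with the replicate block). In PEP-/- cells it was 0.59 (adjusted p = 0.230 by edgeR, 0.00839 with the replicate block). The averaged increases of Tsc22d3 and Tsc22d1 compare with 10.7% of genes that passed in either direction, 5.67% as increases and 4.99% as decreases. Tsc22d2 was lower with DEX in 4 of 4 same-numbered comparisons, at a log2 fold change of -0.38 (adjusted p = 0.256 by edgeR, 0.0241 with the replicate block, where 33.3% of all genes passed). Tsc22d4 showed a log2 fold change of 0.09 with a 95% interval from -0.13 to 0.31, and its groups overlapped, as did those of Tsc22d2. The groups of Tsc22d1 and Tsc22d3 did not, as in 16.6% of all genes.

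**Figure D2:**
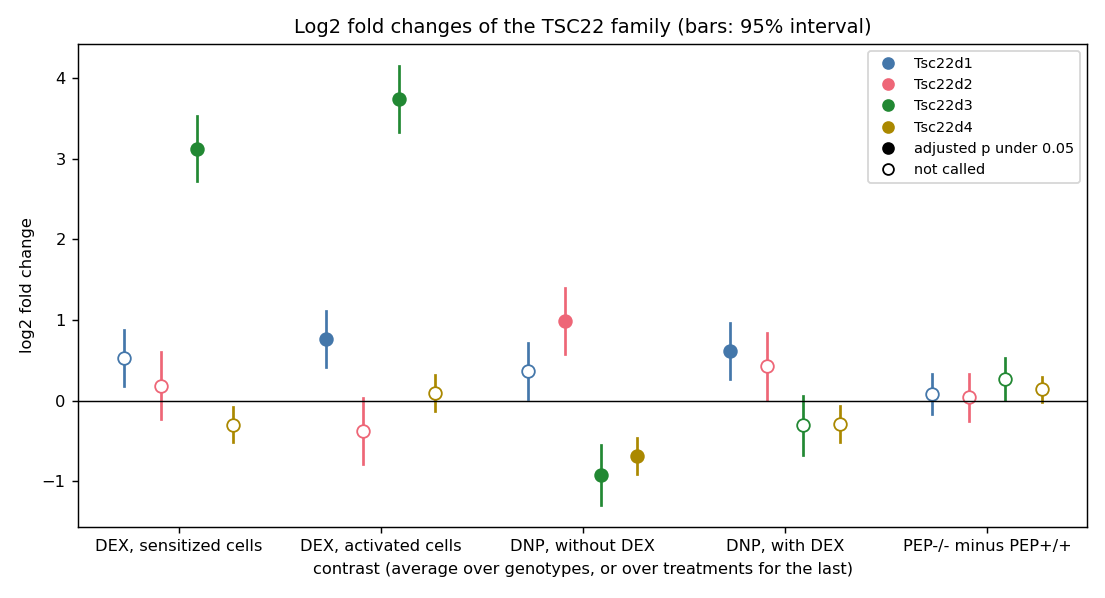
Log2 fold changes of the 4 members with 95% intervals in the 4 treatment contrasts averaged over genotypes and in the genotype contrast averaged over treatments; filled points passed at an adjusted p under 0.05. Tsc22d3 stands at 3.13 and 3.74 with DEX, while no relative exceeds 0.99 in any contrast.

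Antigen without DEX moved the members in opposite directions. Tsc22d3 fell by 0.92 on the log2 scale (a 1.89-fold decrease, adjusted p = 0.00338 by edgeR) and lay between 43.9 and 67.5 CPM with DNP against 81.7 to 134 CPM without it. Tsc22d4 fell by 0.68 (1.60-fold, adjusted p = 0.000808), from 119 to 149 CPM down to 75.1 to 95.1 CPM. Tsc22d2 rose 1.98-fold (log2 fold change 0.99 ± 0.19, adjusted p = 0.00403 by edgeR). In Tsc22d2 the 4 IgE samples lay within 23.1 to 25.5 CPM, while the 4 IgE DNP samples were 39.3, 54.5, 39.1 and 56.7 CPM, with the replicate 2 samples above the replicate 1 samples in both genotypes. Tsc22d1 had a log2 fold change of 0.37 (adjusted p = 0.153 by edgeR, 0.00812 with the replicate block, where 37.9% of all genes passed), with 67.0 to 77.0 CPM in IgE and 83.5 to 113 CPM in IgE DNP samples. The groups did not overlap in any of the 4 members, as in 22.2% of all genes. Thus 3 of 4 members passed, 1 of them higher, where 16.7% of all genes passed, 9.07% as increases and 7.58% as decreases. This contrast shares its IgE DNP samples with the DEX contrast in activated cells and its IgE samples with the DEX contrast in sensitized cells.

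When DEX was present, Tsc22d1 alone passed the test of DNP, at a log2 fold change of 0.61 (1.53-fold, adjusted p = 0.0284 by edgeR). Its IgE DEX samples lay between 89.6 and 127 CPM and its IgE DNP DEX samples between 130 and 194 CPM. The call did not hold without PEP+/+ IgE DEX replicate 1 (adjusted p = 0.0604), PEP+/+ IgE DEX replicate 2 (0.113), PEP+/+ IgE DNP DEX replicate 1 (0.0821), PEP-/- IgE DEX replicate 2 (0.114) or PEP-/- IgE DNP DEX replicate 1 (0.0747), all by edgeR. It compares with 12.6% of genes passing, 7.19% as increases and 5.42% as decreases. With the replicate block, 3 members passed against 37.6% of all genes: Tsc22d1, Tsc22d2 at 0.41 (adjusted p = 0.0143) and Tsc22d4 at -0.29 (adjusted p = 0.0142). Tsc22d3 differed by -0.31 (95% interval -0.68 to 0.06). Its IgE DNP DEX samples, at 725 to 876 CPM, overlapped the IgE DEX samples at 801 to 1277 CPM, and it was lower with DNP in 4 of 4 same-numbered comparisons. With the replicate block the difference was -0.30 (95% interval -0.59 to -0.02, adjusted p = 0.0859 by edgeR). The groups did not overlap in Tsc22d1 and Tsc22d4, as in 19.4% of all genes.

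Whether the DEX response was another one in activated cells was tested as an interaction of DNP and DEX. No member passed by edgeR, with adjusted p from 0.995 to 1, and none passed with DESeq2 or with the replicate block. The difference between the log2 responses was 0.61 for Tsc22d3 (95% interval 0.09 to 1.14), 0.39 for Tsc22d4 (0.08 to 0.70), 0.24 for Tsc22d1 (-0.25 to 0.73) and -0.56 for Tsc22d2 (-1.14 to 0.02). Unadjusted p was under the threshold for 2 members, Tsc22d3 (0.0256) and Tsc22d4 (0.0191). Of all genes 0.331% passed this test, and 1.57% with the replicate block.

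Levels of the members were compared per kilobase of exon, as CPM per kb. In PEP+/+ IgE cells the order was Tsc22d3 at 22.9 ± 5.73 (SD, n = 2), Tsc22d4 at 16.1 ± 0.416, Tsc22d1 at 7.99 ± 0.765 and Tsc22d2 at 2.05 ± 0.00424 CPM per kb. Tsc22d3 and Tsc22d4 lay closest, with the ranges of their 4 sensitized samples, 18.8 to 31.0 and 15.8 to 19.8 CPM per kb, overlapping. In PEP+/+ IgE DNP cells the first 3 came near to each other, Tsc22d3 at 12.4 ± 3.19, Tsc22d4 at 10.2 ± 0.314 and Tsc22d1 at 9.63 ± 0.485 CPM per kb. Their intervals of mean ± SD overlapped, so no order is given among them, and Tsc22d2 stayed lowest at 4.17 ± 0.951. In PEP+/+ IgE DEX cells Tsc22d3 reached 199 ± 19.9 CPM per kb, with Tsc22d4 at 13.4 ± 0.477 and Tsc22d1 at 10.6 ± 0.912. By this scale Tsc22d3 ranked 1903rd of 13166 genes in PEP+/+ IgE cells and 202nd in PEP+/+ IgE DEX cells. Tsc22d1 passed Tsc22d4 in PEP+/+ IgE DNP DEX cells, at 18.5 ± 4.24 against 11.9 ± 0.0895 CPM per kb.

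The make-up of the family's RNA changed accordingly. Tsc22d3 took 42.6% to 51.6% of the summed CPM per kb of the 4 members in IgE samples and 30.7% to 37.9% in IgE DNP samples. It took 87.5% to 90.1% in IgE DEX samples and 84.2% to 85.4% in IgE DNP DEX samples, so samples with and without DEX were far apart. The mean share was 86.9% ± 2.24 (SD, n = 8) with DEX and 41.6% ± 7.83 (n = 8) without, a difference of 45.3 percentage points. The exact two-sided permutation test within the 4 combinations of genotype and DNP gave p = 0.001543, the smallest that its arrangements allow. This test shuffled samples across the replicate numbers. Permuted within replicate numbers, the test has 256 arrangements and can give no p under 0.007812. The share of Tsc22d4 was 26.2% to 35.9% without DEX and 4.84% to 6.53% with it. A share also falls when another member raises the sum. The level of Tsc22d4 itself had log2 fold changes with DEX of -0.30 in sensitized and 0.09 in activated cells.

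**Figure D3:**
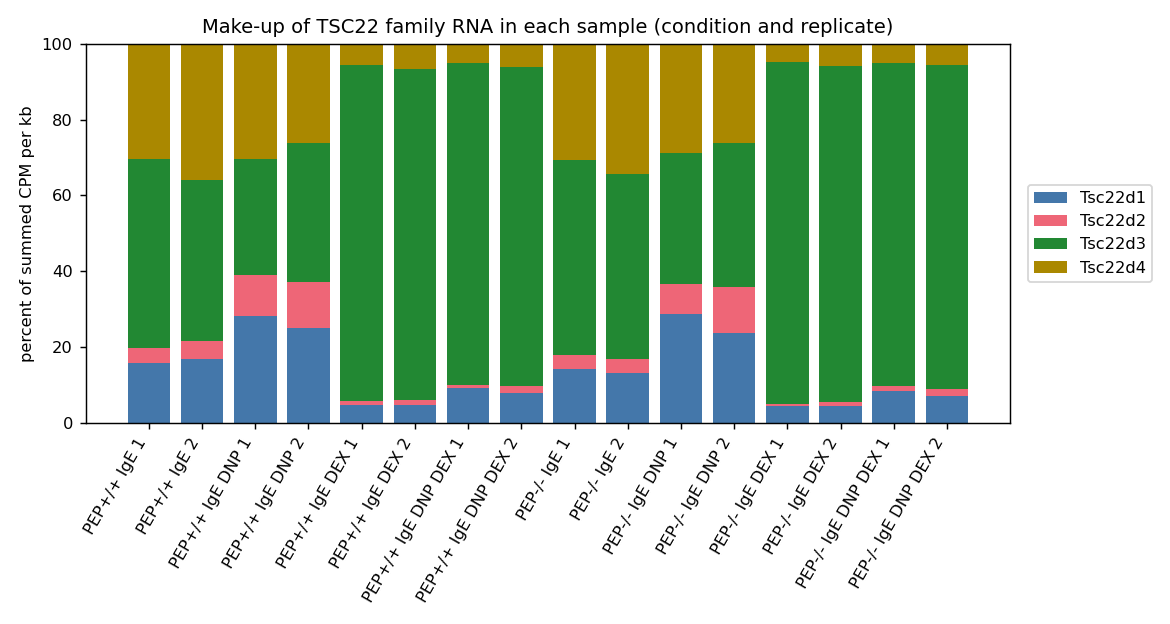
Percent of the summed CPM per kb of the family taken by each member, stacked to 100, in each of the 16 samples named by condition and replicate. Tsc22d3 takes 84.2% to 90.1% in the 8 samples with DEX and 30.7% to 51.6% in the 8 samples without DEX.

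The response of Tsc22d3 was then set against each relative as a log2 ratio of CPM per kb, so that both genes come from the same sample. With DEX the ratio was higher by 2.79 against Tsc22d1, 3.53 against Tsc22d2 and 3.53 against Tsc22d4. Each exact permutation test gave p = 0.001543, also after adjustment over the 3 relatives. These tests, like that of the share, shuffled samples across the replicate numbers. Permuted within replicate numbers, they have 256 arrangements and can give no p under 0.007812. No ratio with DEX overlapped one without it: against Tsc22d1, the nearest to doing so, ratios ran from 3.23 to 4.38 with DEX and from 0.13 to 1.90 without.

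With DNP, the ratio of Tsc22d3 fell by 1.09 against Tsc22d1 and by 1.28 against Tsc22d2 (exact permutation, adjusted p = 0.00463 for both). Against Tsc22d4 the difference was -0.12 (exact permutation, adjusted p = 0.249), and both genes were lower with DNP. The tests of DNP also shuffled samples across the replicate numbers. Permuted within replicate numbers, they can give no p under 0.007812. The Tsc22d1 and Tsc22d2 results each missed the threshold in the planned test without one of several samples, namely PEP+/+ IgE DEX replicate 1 (adjusted p = 0.0556 for both, exact permutation), PEP+/+ IgE DNP replicate 1 (0.0718 for both), PEP+/+ IgE DNP replicate 2 (0.0718 for both), PEP-/- IgE DEX replicate 1 (0.0694 for both) and PEP-/- IgE DEX replicate 2 (0.0625 for both). The Tsc22d2 result also missed it without PEP-/- IgE DNP replicate 2 (0.0532, exact permutation). Leaving out 1 sample makes the numbers of samples with and without DEX unequal between the groups compared.

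The genotypes were compared next. Averaged over treatments, PEP-/- minus PEP+/+ was 0.26 for Tsc22d3 on the log2 scale (95% interval 0.00 to 0.53, adjusted p = 0.346 by edgeR), 0.14 for Tsc22d4 (-0.02 to 0.30), 0.08 for Tsc22d1 (-0.16 to 0.33) and 0.04 for Tsc22d2 (-0.25 to 0.33). No member passed, against 1.59% of all genes, and only Tsc22d3 had an unadjusted p under the threshold (0.0484). None passed with DESeq2 or with the replicate block, where 17.4% of all genes passed and the adjusted p of Tsc22d3 was 0.0727. The 2 samples of each genotype did not overlap for Tsc22d3 in IgE, IgE DNP and IgE DEX cells, where PEP-/- was higher. For Tsc22d4 they did not overlap in any treatment, with PEP-/- higher in all but IgE DNP DEX cells, and for Tsc22d2 they did not overlap in IgE cells. Such groups of 2 did not overlap in 26.4% of all genes in IgE, 24.8% in IgE DNP, 23.8% in IgE DEX and 20.8% in IgE DNP DEX cells. In single treatments the log2 difference ran from -0.14 to 0.39 over the 4 members, and no member passed by edgeR, with DESeq2 or at an unadjusted p under the threshold, where at most 0.00752% of all genes passed. The DEX response of PEP-/- cells minus that of PEP+/+ cells was -0.15 for Tsc22d3 (95% interval -0.67 to 0.37) and from -0.17 to -0.05 for the relatives. The same difference of DNP responses was -0.23 for Tsc22d3 (-0.75 to 0.29). No member passed either test, by edgeR or DESeq2, and of all genes 0% did by edgeR.

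Genes whose pattern was most like that of each member were taken by Pearson's r of log2(CPM + 0.5) over the 8 condition means. The points share libraries and scaling, and r is given as a description. For Tsc22d3 these were Galc (r = 0.995), which encodes the lysosomal enzyme galactosylceramidase, Mob3c (0.994), Acsbg1 (0.993), an acyl-CoA synthetase, and Slc2a8 (0.993), a glucose transporter. Over the 16 samples r was 0.990 for Galc, 0.962 for Mob3c, 0.913 for Acsbg1 and 0.986 for Slc2a8. Galc was 29.9 CPM in PEP+/+ IgE cells, 24.2 CPM with DNP, 147 CPM with DEX and 124 CPM with both. In Slc2a8 the same means were 6.72, 3.80, 51.2 and 38.8 CPM, a pattern of the same order at a lower level.

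**Figure D4:**
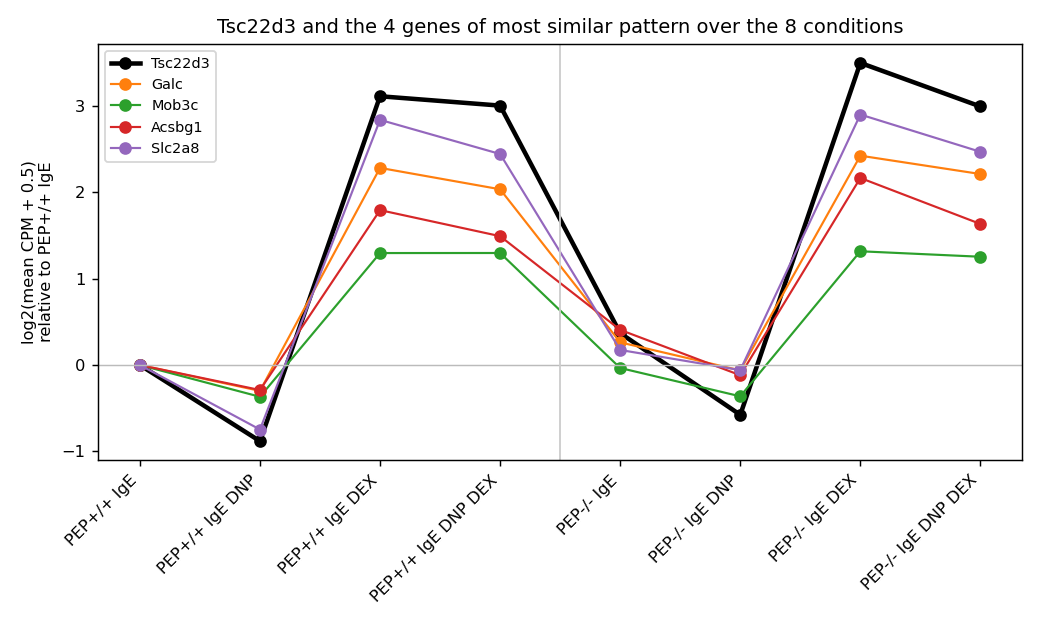
Log2(mean CPM + 0.5) relative to PEP+/+ IgE of Tsc22d3 and the 4 genes with the highest Pearson r to it, over the 8 conditions on the horizontal axis (means of 2 samples). All lines are high in the 4 conditions with DEX and lowest in an IgE DNP condition.

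The relatives had other neighbours. Tsc22d1 was most like Mt1 (r = 0.987), a metallothionein, Capzb (0.987), which encodes an actin capping subunit, and Elovl5 (0.984), a fatty acid elongase. Mt1 rose from 173 CPM in PEP+/+ IgE cells to 1064 CPM in PEP+/+ IgE DNP DEX cells. Tsc22d2 was most like Etv3 (0.997), a transcriptional repressor, Mir155hg (0.994), the host transcript of miR-155, and Zc3h12c (0.994). Mir155hg was 1.36 CPM in PEP+/+ IgE cells, 44.9 CPM with DNP and 10.9 CPM with DNP and DEX. Tsc22d4 was most like Accs (0.987), Fam174b (0.987) and Mylip (0.986), an E3 ligase that acts on the LDL receptor. Over the 16 samples r was 0.812 for Mt1, 0.939 for Capzb and 0.905 for Elovl5. For the neighbours of Tsc22d2 it was 0.7785 (Etv3), 0.959 (Mir155hg) and 0.828 (Zc3h12c). For those of Tsc22d4 it was 0.777 (Accs), 0.963 (Fam174b) and 0.893 (Mylip). Among the members, r over the 8 condition means was 0.68 between Tsc22d1 and Tsc22d3. It was -0.89 between Tsc22d2 and Tsc22d4, and 0.03 between Tsc22d3 and Tsc22d4.

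Classical glucocorticoid targets gave a scale for the Tsc22d3 response. Of 20 listed genes 18 were tested, and 11 rose and none fell with DEX in sensitized cells, with a median log2 fold change of 1.92 against 0.00 over all genes, of which 5.4% rose and 3.98% fell. Dusp1, a MAP kinase phosphatase, rose by 4.78, and Fkbp5, a chaperone of the glucocorticoid receptor, by 3.26 on the log2 scale. Dusp1 started near the floor, at means of 0.998 CPM in PEP+/+ IgE and 0.964 CPM in PEP-/- IgE cells. Zbtb16, a zinc finger repressor, was at 0 in both PEP-/- IgE samples and at a mean of 5.73 ± 3.78 CPM (SD, n = 2) in PEP-/- IgE DEX samples, so no fold is given. Its means without DEX were at most 0.0434 CPM, so it passed the filter on low counts only through samples with DEX. It could be called only as a rise, and it is counted among the 18 tested, the 11 that rose and in the medians. In activated cells 9 rose and 2 fell, with a median of 1.09, where 5.67% of all genes rose and 4.99% fell. Blocking on the replicate number gave 12 rises and 0 falls in sensitized cells and 11 rises and 3 falls in activated cells, with 26.7% and 33.3% of all genes passing in either direction. The 2 that fell were Sgk1 (-1.93) and Errfi1 (-1.30), both of which rose with DNP alone. Nfkbia, the inhibitor of NF-kappaB, had a log2 fold change of 2.96 with DEX in sensitized cells and also rose by 3.76 with DNP.

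**Figure D5:**
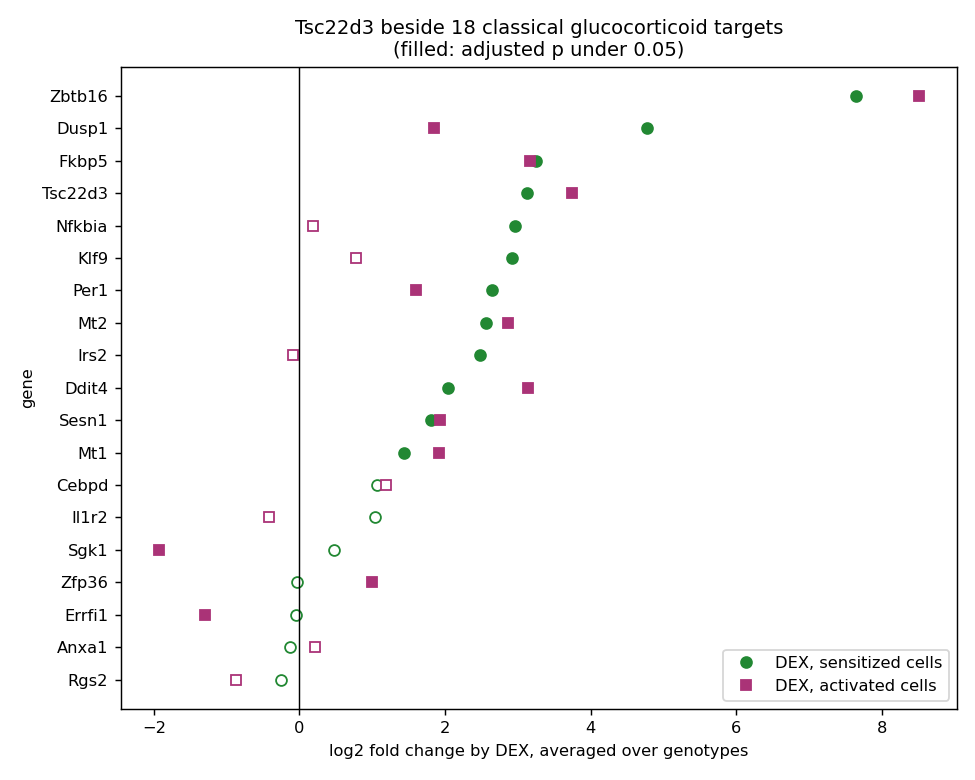
Log2 fold changes by DEX, averaged over genotypes, for Tsc22d3 and the 18 tested glucocorticoid targets, in sensitized cells (circles) and activated cells (squares); filled symbols passed at an adjusted p under 0.05. Tsc22d3 stands at 3.13 and 3.74, next to Fkbp5 at 3.26 and 3.17.

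Genes whose products GILZ binds or restrains were read next. Of 15 tested, 8 rose and 1 fell with DNP without DEX, with a median log2 fold change of 0.67 against 0.00 over all genes, of which 9.07% rose and 7.58% fell. Fos, an AP-1 subunit, rose by 3.37, and Nfkb1 by 1.95. The Fos rise started near the floor, at means of 0.681 CPM in PEP+/+ IgE and 0.467 CPM in PEP-/- IgE cells. With DEX in sensitized cells 1 rose and 4 fell, at a median of 0.06, where 5.4% of all genes rose and 3.98% fell. Nfkb1 rose by 1.25, Jun fell by 0.94 and Trp53 by 0.57. In PEP+/+ cells Jun went from 33.5 ± 13.0 to 11.8 ± 0.374 CPM (SD, n = 2). In PEP-/- cells it went from 35.35 ± 10.45 to 27.1 ± 4.99 CPM. The Trp53 call did not hold with no filter on low counts (adjusted p = 0.0718 by edgeR). The Jun call did not hold without any 1 of 10 samples (0.0543 to 0.176), which were both replicates of the 4 conditions with DEX and replicate 2 of PEP+/+ IgE and PEP-/- IgE. With only the conditions compared, the adjusted p was 0.0696 for Jun by edgeR. In activated cells 4 fell with DEX, among them Jun, Mapk3 and Trp53, and none rose, against 4.99% and 5.67% of all genes. With the replicate block, 3 rose and 4 fell in sensitized cells, 1 rose and 6 fell in activated cells, and 12 rose and 2 fell with DNP, while 26.7%, 33.3% and 37.9% of all genes passed in either direction.

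Of the kinases and pseudokinases that TSC22 proteins bind, 6 of 8 were tested. Stk39, a kinase downstream of the WNK kinases, rose with DEX by 1.04 in sensitized and by 0.88 in activated cells, from 21.3 ± 4.53 to 36.6 ± 2.65 CPM (SD, n = 2) in PEP+/+ sensitized cells. Wnk1 rose with DEX in activated cells by 1.00 and with DNP by 0.87. The median of the list was 0.21 in sensitized and 0.62 in activated cells. With DEX 1 of the 6 rose in sensitized and 2 in activated cells, and none fell. Of all genes, 5.4% rose and 3.98% fell in sensitized cells, and 5.67% rose and 4.99% fell in activated cells. With the replicate block 2 of the 6 rose in sensitized cells, where 26.7% of all genes passed, and 3 rose and 1 fell in activated cells, where 33.3% passed.

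Of the TGF-beta pathway, 10 of 14 listed genes were tested, and 2 rose and 1 fell with DEX in sensitized cells, where 5.4% of all genes rose and 3.98% fell. Tgfbr1, a TGF-beta receptor, rose by 0.89, and the ligand Tgfb1 fell by 0.69. The Tgfbr1 call did not hold without PEP+/+ IgE replicate 2, PEP-/- IgE DEX replicate 1 or PEP-/- IgE replicate 2 (adjusted p from 0.0519 to 0.0604 by edgeR). The Tgfb1 call did not hold without any 1 of 7 of the 8 sensitized samples, PEP+/+ IgE DEX replicate 1 being the exception (0.0501 to 0.126). With DNP without DEX 4 rose, among them Skil by 1.39, Tgfb1 by 1.15 and Smad7 by 0.86, against 9.07% of all genes. The replicate block gave 3 rises and 2 falls with DEX in sensitized cells and 5 rises and 1 fall with DNP, where 26.7% and 37.9% of all genes passed.

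Of 6 tested regulators of Tsc22d3, Foxo1 rose with DEX in sensitized cells by 1.03, from 10.4 ± 0.129 to 23.4 ± 0.283 CPM (SD, n = 2) in PEP+/+ cells. Foxo3, a related forkhead factor, rose by 0.62 with DEX in activated cells and fell by 0.47 with DNP. In each of these contrasts 1 of the 6 passed. Of all genes, 5.4% rose and 3.98% fell with DEX in sensitized cells. In activated cells 5.67% rose and 4.99% fell with DEX, and with DNP alone 9.07% rose and 7.58% fell. Nr3c1, the glucocorticoid receptor gene, had a log2 fold change of -0.43 with DEX in sensitized cells (adjusted p = 0.543 by edgeR, 0.0294 with the replicate block). With that block, 2 of the 6 rose and Nr3c1 fell, where 26.7% of all genes passed.

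Markers of other cell types that moved with these treatments were those of basophils and erythroid cells. The 3 basophil genes, all of them present, summed to 539 to 623 CPM in IgE, 750 to 882 CPM in IgE DNP, 228 to 392 CPM in IgE DEX and 431 to 479 CPM in IgE DNP DEX samples. Cd200r3, which mast cells also express, lay at 198 to 837 CPM, and the basophil proteases Mcpt8 and Prss34 lay at 8.03 to 62.8 CPM and 10.2 to 59.4 CPM. The 3 erythroid genes summed to at most 0.720 CPM without DEX and to between 0.407 and 6.38 CPM with it, with only Hba-a1 above 1 CPM. Their part in the results was not tested.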

How the data were processed

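RNA of 16 BMMC samples was sequenced from stranded mRNA libraries. According to the study's methods, reads were aligned with TopHat2 to GRCm38 (Ensembl 75) and counted with HTSeq, whose strand setting is not given in the sources used here. The authors deposited whole-number counts per gene for each sample, with further rows for unassigned reads. These rows, 29.1% to 49.6% of all entries in a sample, were left out. Every sample column was used. A read that aligned to several places counted on no gene. Gene symbols and coordinates were read from the GENCODE M21 annotation (GRCm38), which held 37607 of 39179 identifiers (95.99%).

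Samples were grouped by the labels. Counts were scaled by TMM, kept by filterByExpr (minimum count 10, 13305 genes) and fitted by quasi-likelihood (glmQLFit, glmQLFTest; edgeR 4.0.16, R version 4.3.3) with 1 mean for each of 8 conditions and 8 residual degrees of freedom. Calls were made at a Benjamini-Hochberg adjusted p under 0.05 over all genes. Ratios (pseudocount 0.5 CPM) and shares used the union of exons as length and exact two-sided permutation tests. The p-values printed for these tests come from shuffling across the replicate numbers. The scripts were tested on simulated data.

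The labels number 1 replicate of each condition and letter the other. Deviations of samples of the same set from the condition means correlated in all 28 pairs of conditions (0.454 to 0.835 over 13305 genes), so the sets were taken as pairs for the replicate block. The labels do not say whether a set was prepared together. Replicates differed well beyond sampling noise (chi-square per degree of freedom at least 50.4).

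The members, the gene lists and the tests were chosen with earlier results of these data known. The text names all members, Ptpn22, the 5 genes most like Tsc22d3 and the 3 most like each relative (at least 1 CPM, and a range of at least 1 on the log2 scale where the member had one), and up to 3 genes per list and direction that passed with DEX in sensitized cells. Some genes that this rule names are not reported here. Other list genes were named after their values were seen. Alternatives were DESeq2 1.42.0, its size factors in edgeR, other filters, only the conditions compared, the replicate block, each sample left out, and for ratios another length or pseudocount.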

Additional observations from a re-analysis of the deposited data

How the results depend on the processing

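The DEX increase of Tsc22d3 in sensitized and in activated cells passed under every alternative run. So did the averaged DEX increase of Tsc22d1 in activated cells and the averaged DNP changes of Tsc22d2, Tsc22d3 and Tsc22d4 without DEX. Of 1744 values of members under alternatives, 1615 kept direction and side of the threshold. With DEX in sensitized cells 1 member passed, against 3 with the replicate block, 3 with DESeq2, 2 with at least 10 counts in every sample, 2 with only the conditions compared and 1 to 2 with a sample left out. For DNP with DEX 1 passed, against 3 with the replicate block, 2 with DESeq2, 0 with only the conditions compared (Tsc22d1 adjusted p = 0.0815 by edgeR) and 0 to 1 with a sample left out. Beyond the members named with a blocked value, the replicate block changed no averaged call. The cause was not tested.

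With a sample left out, the planned difference of means of the ratio of Tsc22d3 ran from -1.33 to -0.84 against Tsc22d1, from -1.65 to -0.96 against Tsc22d2 and from -0.41 to 0.18 against Tsc22d4 for DNP, the last turning its sign for 8 of 16 samples. After these values were seen, the differences were also averaged within the strata, which stay balanced in weight: the ranges were then -1.14 to -1.04, -1.40 to -1.16 and -0.18 to -0.07, with adjusted p of at most 0.00926 for the first and second (exact permutation). Both are given because the second was chosen knowing the first.

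Other values that turned their sign had not passed. They did so with a sample left out, over these ranges: Tsc22d1 genotype difference in IgE, -0.092 to 0.11 (-0.0043 with only the conditions compared), and in IgE DNP DEX, -0.36 to 0.10; Tsc22d1 genotype by DEX, -0.18 to 0.048, and by DNP, -0.18 to 0.055. For Tsc22d2 they were genotype by DEX, -0.22 to 0.13, by DNP, -0.086 to 0.27, and the genotype difference in IgE DEX, -0.15 to 0.027, in IgE DNP, -0.23 to 0.31, in IgE DNP DEX, -0.22 to 0.48, and on average, -0.041 to 0.14. The DNP response with DEX in PEP+/+ cells ran from -0.038 to 0.67 for Tsc22d2 and from -0.23 to 0.030 for Tsc22d3. The genotype difference of Tsc22d3 in IgE DNP DEX ran from -0.14 to 0.12 (0.0036 with at least 10 counts in every sample), and the DEX response of Tsc22d4 in activated PEP-/- cells from -0.15 to 0.089. With 2 samples per condition, the sign of these values was not settled.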
